A study of Mus musculus with 2 samples.

Results

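The mitochondrial genome is a small circular DNA that carries 37 annotated genes in the mouse, and the transcripts of these genes were described here in long-read RNA-seq of the adrenal gland, in which 1 read can cover an RNA from end to end. Members were taken by name, as every gene whose symbol starts with mt-. They comprised 13 mRNA genes, 2 rRNA genes and 22 tRNA genes, and 18 of the 37 had at least 1 read, among 16945 annotated genes with a read in the whole dataset. Glands were of B6CASTF1/J females aged 36 days, an F1 cross of the C57BL/6J and CAST/EiJ strains. Both libraries form 1 group, numbered biological replicates 1 and 2 in the labels, with no treatment named and no comparison between conditions. A label field gives both libraries the same animal number while another gives them different numbers. The spread therefore measures these 2 libraries and may be technical. The p-values apply to these libraries only and set reads against counting error, with no term for spread between libraries. The starting quantity of RNA was 1 µg for replicate 1 and is not given in the labels for replicate 2.

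Mitochondrial DNA is inherited from the mother. Both of its strands are transcribed into long precursors, and most of its protein genes are flanked by tRNA genes whose excision frees the mRNAs and rRNAs. The mRNAs encode core subunits of respiratory complexes I, III and IV and of the ATP synthase, while all other subunits come from nuclear genes. Most mitochondrial mRNAs carry short poly(A) tails, which for some of them complete the stop codon. In the adrenal cortex, mitochondria also house the first and the last enzymes of corticosteroid synthesis.

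The layout of the genome is shown first by the places where genes touch, since these set how a read can be given to a gene. All sequences are from the GENCODE M21 transcripts, on mm10 (GRCm38), written 5′ to 3′. The gene of the methionine tRNA, mt-Tm (in capitals), ends directly before the first base of the complex I gene mt-Nd2, at chrM:3845-3943 on the plus strand, and the last bases of mt-Cytb run directly into the threonine tRNA gene mt-Tt (in capitals) at chrM:15259-15355, also on the plus strand.
mt-Tm and the start of mt-Nd2: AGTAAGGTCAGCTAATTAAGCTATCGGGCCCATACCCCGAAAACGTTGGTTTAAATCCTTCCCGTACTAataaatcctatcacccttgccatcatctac
the end of mt-Cytb and mt-Tt: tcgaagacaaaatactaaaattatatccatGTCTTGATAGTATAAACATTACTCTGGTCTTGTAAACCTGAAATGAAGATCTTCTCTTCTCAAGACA

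Protein genes also overlap one another on the plus strand. The last 43 bases of mt-Atp8 are the first 43 of mt-Atp6, and the last 7 bases of mt-Nd4l are the first 7 of mt-Nd4. The shared bases are in capitals, at chrM:7900-7969 and chrM:7927-7996 for the first pair and at chrM:10144-10173 and chrM:10167-10196 for the second.
the end of mt-Atp8: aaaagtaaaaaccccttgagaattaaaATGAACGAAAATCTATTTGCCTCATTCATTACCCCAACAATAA
the start of mt-Atp6: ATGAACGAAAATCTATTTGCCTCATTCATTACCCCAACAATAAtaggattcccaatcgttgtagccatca
the end of mt-Nd4l: gtccaaaatctcaacctactacaATGCTAA
the start of mt-Nd4: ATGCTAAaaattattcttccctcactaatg
Each pair is known to be translated from 1 shared RNA. Both upstream partners, mt-Atp8 and mt-Nd4l, had 0 reads in both libraries, while mt-Atp6 had 47 and 94 reads and mt-Nd4 had 49 and 82 in replicates 1 and 2. A read of the paired RNA can be listed under 1 gene only, so the 0 reads do not show that the sequence of mt-Atp8 or mt-Nd4l was missing. Other overlaps of genes on the same strand were 2 bases or less.

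The annotated mRNAs of mt-Co3, mt-Nd4 and mt-Cytb end 1 base past the last whole codon. That base, a T in each (in capitals), starts a stop codon that the poly(A) tail completes. The other 10 mRNA genes, as annotated, end on a whole stop codon. In mt-Nd1 and mt-Nd2, however, the last 2 bases of that codon also belong to the next tRNA gene, mt-Ti or mt-Tw. The printed stretches lie on the plus strand at chrM:9360-9390, chrM:11514-11544 and chrM:15258-15288.
the end of mt-Co3: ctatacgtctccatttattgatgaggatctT
the end of mt-Nd4: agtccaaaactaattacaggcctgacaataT
the end of mt-Cytb: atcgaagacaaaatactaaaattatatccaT
Adenine made up 22.2% to 40.7% of the bases of the 13 mRNA genes, and 37.8% and 38.2% of the rRNA genes mt-Rnr1 and mt-Rnr2. The longest run of A within an mRNA gene ranged from 3 bases in mt-Nd6 to 8 in mt-Nd2.

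Replicate 1 held 1223776 reads, 1144572 of them on annotated genes, and replicate 2 held 453761, with 414588 on annotated genes. Levels are given as CPM, reads per 1000000 reads of annotated genes, and a count of 0 allows up to 3 reads, which is 2.62 CPM in replicate 1 and 7.24 CPM in replicate 2. The intervals below are exact 95% Clopper-Pearson intervals, and they and this floor cover counting error only. Adrenal cortex markers were abundant in both libraries, with Cyp11a1, the side-chain cleavage enzyme, at 20811 and 41366 CPM.

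Mitochondrial genes held 975 reads in replicate 1 and 1713 in replicate 2. This was 0.0852% of the reads of annotated genes in replicate 1 (interval 0.0799% to 0.0907%) and 0.413% in replicate 2 (0.394% to 0.433%), a mean of 0.249% ± 0.232 (SD, n = 2). The shallower library thus held more mitochondrial reads, and the levels were 852 and 4132 CPM. After scaling by TMM, a factor that balances the libraries over most genes, replicate 2 was 5.09-fold higher (4.70 to 5.51).

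Between the libraries, 13 mitochondrial genes had the 10 reads in total needed for a test. The two-sided exact binomial test set each gene's reads against the scaled library sizes, with Benjamini-Hochberg adjustment over all 9885 genes tested and a threshold of 0.05. It called 11 of the 13 higher in replicate 2 and 0 lower, also with an unadjusted p under 0.05. All 13 log2 ratios were above 0. Among the genes called, mt-Tm reached the 10 reads only through replicate 2. Of the 5 members with a read that were not tested, mt-Nd6 and mt-Ti had log2 ratios of -0.35 and -0.89. Ratios of mt-Tq, mt-Nd3 and mt-Tp were above 0. Calls over all 9885 genes were 7.76% on the higher and 6.14% on the lower side. These 13 genes had a median log2 ratio of 2.45 (with 1 CPM added to each level), against -0.01 over all genes tested. The test compares these libraries, not conditions.

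**Figure D1:**
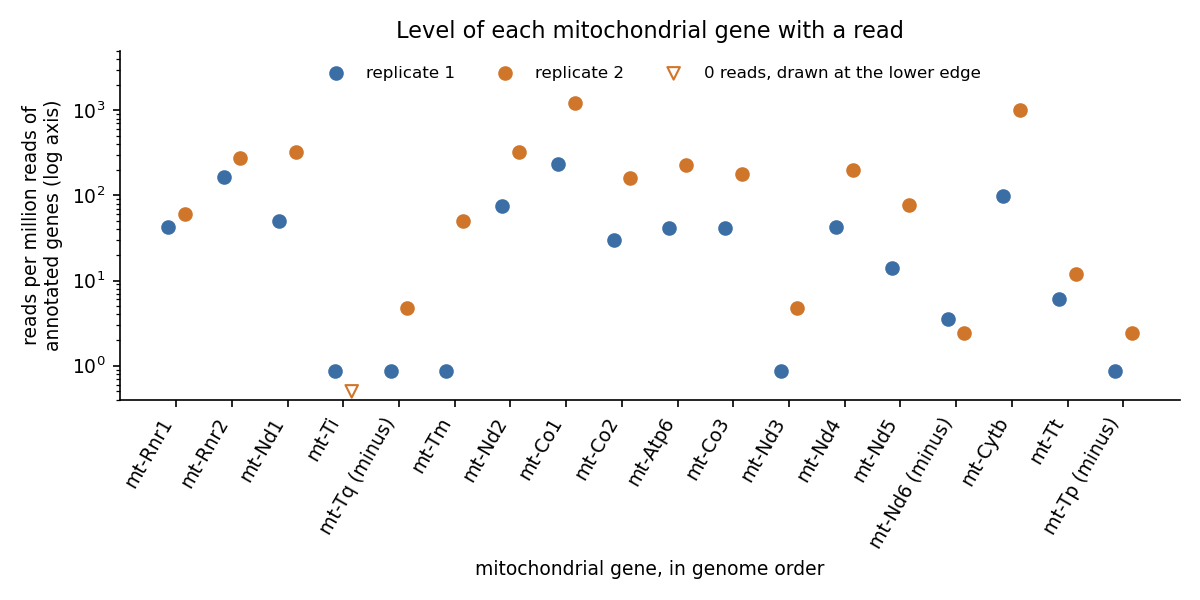
Level of each of the 18 mitochondrial genes with a read, in CPM on a log axis, with genes in genome order and 1 point per library. Replicate 2 lies above replicate 1 for all but mt-Ti, which had 0 reads in replicate 2, and mt-Nd6.

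Among the complex I mRNAs, the NADH dehydrogenase subunit mt-Nd1 had 58 reads in replicate 1 and 133 in replicate 2, or 50.7 and 321 CPM. This was 6.64-fold higher in replicate 2 (4.84 to 9.20, adjusted p = 1.6e-34 by the exact binomial test). For mt-Nd2 the reads were 87 and 134, or 76.0 and 323 CPM, and replicate 2 was 4.46-fold higher (3.38 to 5.91, adjusted p = 1.3e-25). The subunit gene mt-Nd4, the downstream partner of mt-Nd4l, was at 42.8 and 198 CPM, 4.85-fold higher in replicate 2 (3.36 to 7.05, adjusted p = 6.5e-17). Replicate 2 was the higher library for each of these mRNAs, and their intervals overlap one another.

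The longest mRNA, mt-Nd5 with 1824 bases, had 16 and 32 reads and was 5.79-fold higher in replicate 2 (3.09 to 11.3, adjusted p = 1.1e-07). Its level per kb was low at 7.66 and 42.3 CPM per kb, against 53.0 and 335 CPM per kb for mt-Nd1. Too few reads for a test were found for mt-Nd3, with 1 and 2 reads, and for mt-Nd6, with 4 and 1. The subunit gene mt-Nd6 is the only mRNA gene on the minus strand. At these depths a difference of mt-Nd3 or mt-Nd6 between the libraries was not detectable.

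The only complex III mRNA, mt-Cytb, encodes cytochrome b. It held 113 reads in replicate 1, 98.7 CPM, and 419 reads in replicate 2, 1011 CPM. The fold of 10.7 (8.71 to 13.3, adjusted p = 2.1e-141) lies above that of each of the other mRNA genes tested, whose folds ran from 4.46 to 6.64. Its interval overlaps those of mt-Nd1, mt-Nd5 and mt-Co2 and lies above that of mt-Co1, the most read member. The share of mitochondrial reads on mt-Cytb was 11.6% in replicate 1 (9.65% to 13.8%) and 24.5% in replicate 2 (22.4% to 26.6%), and these intervals do not overlap. Within a library, mt-Co1 had 2.37 reads per mt-Cytb read in replicate 1 (1.90 to 2.98) and 1.21 in replicate 2 (1.06 to 1.38). Reads listed under a nuclear copy of mt-Co1 (below) are left out of this ratio.

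The complex IV mRNAs encode the core subunits of cytochrome c oxidase. The gene of the catalytic subunit, mt-Co1, had 268 and 507 reads, or 234 and 1223 CPM, and was 5.48-fold higher in replicate 2 (4.72 to 6.38, adjusted p = 4.0e-116). The subunit gene mt-Co2 had 34 and 66 reads and a fold of 5.62 (3.66 to 8.77, adjusted p = 2.6e-15). The third subunit gene, mt-Co3, had 48 and 75 reads and a fold of 4.53 (3.11 to 6.64, adjusted p = 1.3e-14). Within a library, mt-Co1 had 7.88 reads per mt-Co2 read in replicate 1 (5.50 to 11.6) and 7.68 in replicate 2 (5.93 to 10.1), with overlapping intervals. With reads listed under nuclear copies added (below), mt-Co1 would hold 315 and 605 reads and mt-Co2 70 and 121, a lower ratio in each library. Of the ATP synthase genes, mt-Atp6, part of the proton channel, had 47 and 94 reads and was 5.79-fold higher in replicate 2 (4.04 to 8.41, adjusted p = 3.3e-22).

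**Figure D2:**
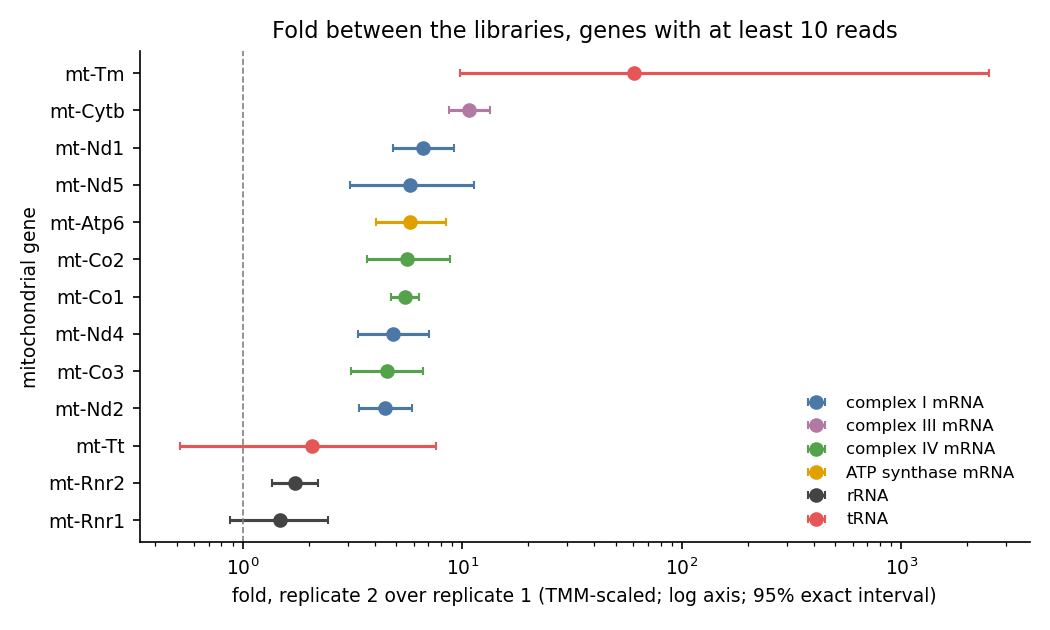
Fold of replicate 2 over replicate 1 on a log axis for the 13 mitochondrial genes tested, after TMM scaling, with exact 95% intervals and colours by class of gene. The 9 mRNA genes tested lie between 4.46 and 10.7, and the rRNA genes mt-Rnr2 and mt-Rnr1 lie at 1.74 and 1.48. With 1 and 21 reads, mt-Tm lies at 60.8 with the widest interval.

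The rRNAs of the mitochondrial ribosome had smaller folds. The large rRNA, mt-Rnr2, had 190 reads in replicate 1 and 114 in replicate 2, or 166 and 275 CPM, and was 1.74-fold higher in replicate 2 (1.37 to 2.20, adjusted p = 1.1e-04). With only models of 1 exon counted in all genes, an alternative chosen after seeing the data, this call was lost (log2 ratio 0.38, adjusted p = 0.110). The small rRNA, mt-Rnr1, had 49 and 25 reads, 42.8 and 60.3 CPM, and did not pass the test (fold 1.48, 0.875 to 2.44, adjusted p = 0.333). Both rRNAs together held 24.5% of mitochondrial reads in replicate 1 (21.8% to 27.3%) and 8.11% in replicate 2 (6.86% to 9.51%). The summed rRNA fold of 1.68 (1.36 to 2.08) and the summed mRNA fold of 6.17 (5.65 to 6.75) had intervals that do not overlap. The large rRNA had 3.88 reads per mt-Rnr1 read in replicate 1 (2.82 to 5.42) and 4.56 in replicate 2 (2.94 to 7.34), a ratio whose intervals overlap.

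The mRNAs made up 74.4% of mitochondrial reads in replicate 1 (71.5% to 77.1%) and 90.2% in replicate 2 (88.7% to 91.6%). Complex IV held 35.9% and 37.8%, complex I 22.1% and 22.4%, and the ATP synthase 4.82% and 5.49%, each with overlapping intervals. Only the shares of mt-Cytb and of the rRNAs had intervals that did not overlap among the 6 classes of gene. Reads listed under nuclear copies (below) are left out of these shares, and for mt-Atp6 they outnumbered the gene's own reads.

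**Figure D3:**
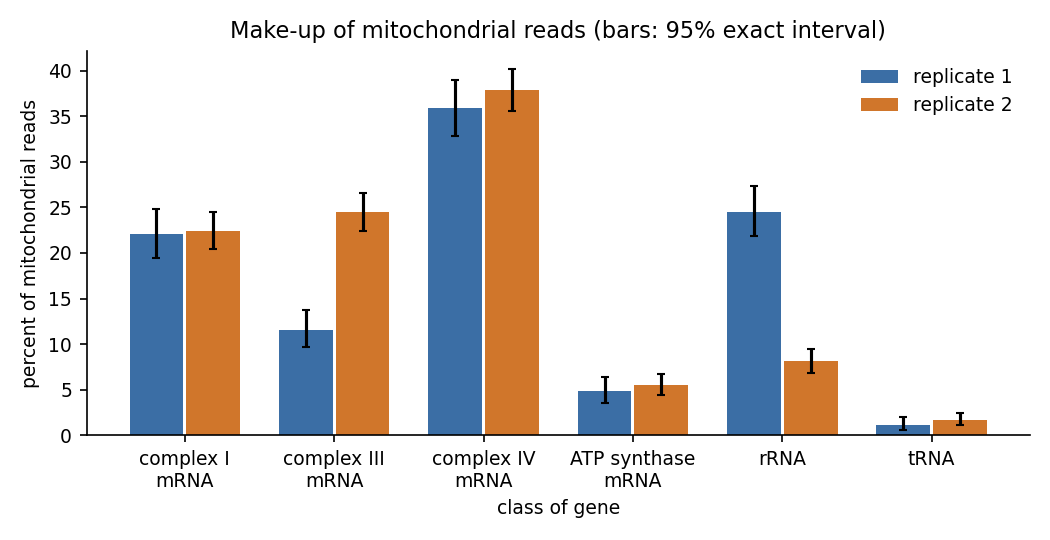
Percent of mitochondrial reads in each class of gene, with 1 bar per library and exact 95% intervals. The rRNA share is 24.5% in replicate 1 and 8.11% in replicate 2, and the complex III share, which is mt-Cytb alone, is 11.6% and 24.5%.

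The tRNA genes, 59 to 75 bases long, held 11 and 29 reads, or 1.13% and 1.69% of mitochondrial reads. Reads were found for 5 of the 22 tRNA genes and 17 had 0 in both libraries. The methionine tRNA gene mt-Tm lies directly before mt-Nd2, as printed above. It had 1 read in replicate 1 and 21 in replicate 2 (fold 60.8, 9.78 to 2515, adjusted p = 3.4e-10 by the exact binomial test). It passed the minimum of 10 reads only through replicate 2, where it is high, so this call is no support for that direction. The threonine tRNA gene mt-Tt, which follows mt-Cytb, had 7 and 5 reads and did not pass the test (fold 2.07, 0.518 to 7.57, adjusted p = 0.475). Both mt-Tq, the glutamine tRNA gene, with 1 and 2 reads, and mt-Tp, the proline tRNA gene, with 1 and 1, lie on the minus strand. The isoleucine tRNA gene mt-Ti had 1 and 0 reads. The tables list a tRNA read under the whole annotated gene, so whether such a read was a tRNA or part of a longer RNA cannot be told from them.

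Per length, the order of the genes differed between the libraries. In replicate 1 the highest levels were mt-Co1 at 152 CPM per kb, mt-Rnr2 at 105, mt-Tt at 91.3 and mt-Cytb at 86.3. In replicate 2 they were mt-Cytb at 883 CPM per kb, mt-Co1 at 792, mt-Tm at 734 and mt-Nd1 at 335. The level of mt-Rnr2 ranked 2 in replicate 1 and 10 in replicate 2. By mean over both libraries mt-Cytb led at 485 ± 564 CPM per kb (SD, n = 2), followed by mt-Co1 at 472 ± 453 and mt-Tm at 373 ± 510. Of the 17 pairs of neighbours in that order, 16 differed by less than the larger SD of the pair. The exception was mt-Tp above mt-Nd3, with 2 and 3 reads in all. Reads listed under nuclear copies of the genes (below) are left out of these levels. The near-identical copy of mt-Co1, Gm29216, held 47 and 98 reads, and no such copy of mt-Cytb was found. The order of mt-Cytb and mt-Co1 can thus depend on how reads were assigned.

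Genes on the plus strand held nearly all gene reads, 99.4% in replicate 1 (98.7% to 99.8%) and 99.8% in replicate 2 (99.4% to 99.9%). The plus strand carries 28 of the 37 genes, 14 of them tRNA genes, and the minus strand carries mt-Nd6 and 8 tRNA genes. Minus-strand genes had 6 and 4 reads in all.

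Every member read was in a model of the class Known, which matches an annotated transcript, and every such model had 1 exon. Each of the 18 models in replicate 1 and the 17 in replicate 2 had the length of its annotated gene, so the true ends of the reads are not kept in the tables. Over all annotated genes, Known models held 75.5% and 69.8% of reads and models of 1 exon 13.5% and 19.2%. No member model was spliced, and none covered at least 50% of a second gene on the same strand. Counting an overlap of at least 1 base instead put 29.99% of mitochondrial reads in models that touch several genes. This came through the overlaps of mt-Nd1, mt-Nd2, mt-Atp6, mt-Co3, mt-Nd4 and mt-Ti with their neighbours. Both ways of counting rest on annotated gene bounds, so they do not show whether a read crossed several genes.

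A separate set of reads lay in loci outside the annotation on the mitochondrial chromosome, some of which cross gene borders. These loci are not members, since they carry no mt- symbol. Replicate 1 had 14 of them with 79 reads, 7.50% of all reads on the chromosome (5.98% to 9.25%), and replicate 2 had 15 with 57 reads, 3.22% (2.45% to 4.15%). All had 1 exon, 13 and 14 were classed as Antisense and 1 in each library as Intergenic. In 12 of 14 and 12 of 15 loci, a start or an end fell exactly on the first or last base of an annotated gene. By overlap on the same strand, 14 of 14 and 12 of 15 had a counterpart in the other library.

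The minus strand took most of the reads of these loci in replicate 1, 59 against 20, and fewer than the plus strand in replicate 2, 26 against 31. With them, the minus strand held 6.17% of reads on the chromosome in replicate 1 (4.79% to 7.79%) and 1.69% in replicate 2 (1.15% to 2.41%). The minus-strand reads outside the annotation outnumbered those on minus-strand genes 9.83 to 1 in replicate 1 and 6.50 to 1 in replicate 2. The most read of them in replicate 1 lay opposite the whole of mt-Rnr2 at chrM:1094-2675, with 16 reads. In replicate 2 a shorter locus opposite mt-Rnr2, chrM:1409-2675, had 1 read.

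Loci that covered at least 50% of 2 or more genes on the opposite strand numbered 4 in each library, with 21 and 26 reads. In replicate 1 a plus-strand locus at chrM:5016-5159 with 8 reads lay opposite the tRNA genes mt-Ta and mt-Tn, and a minus-strand locus of 2416 bases at chrM:10173-12588 with 5 reads lay opposite mt-Nd4, mt-Th, mt-Ts2 and mt-Tl2. In replicate 2 a plus-strand locus at chrM:5016-5260 with 7 reads lay opposite mt-Ta, mt-Tn and mt-Tc. A plus-strand locus at chrM:13565-14145 with 13 reads lay opposite mt-Nd6 and mt-Te, from the last base of mt-Nd5 to the first of mt-Cytb. A minus-strand locus at chrM:14139-15355 with 5 reads lay opposite mt-Cytb and mt-Tt. Both libraries thus held plus-strand reads opposite mt-Ta and mt-Tn. The control region with its promoters lies past the last gene, mt-Tp. Wholly within it, replicate 1 had 2 loci with 15 reads and replicate 2 had 2 loci with 10 reads. Of the latter, 1 with 7 reads is listed with a length of 1 base. Not counted here are loci that reach from mt-Tp into that region. On the minus strand these were chrM:15422-15730 with 8 reads in replicate 1 and chrM:15422-16033 with 5 in replicate 2. On the plus strand they were chrM:15422-16115 with 2 reads in replicate 1 and chrM:15356-16033 with 8 in replicate 2.

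**Figure D4:**
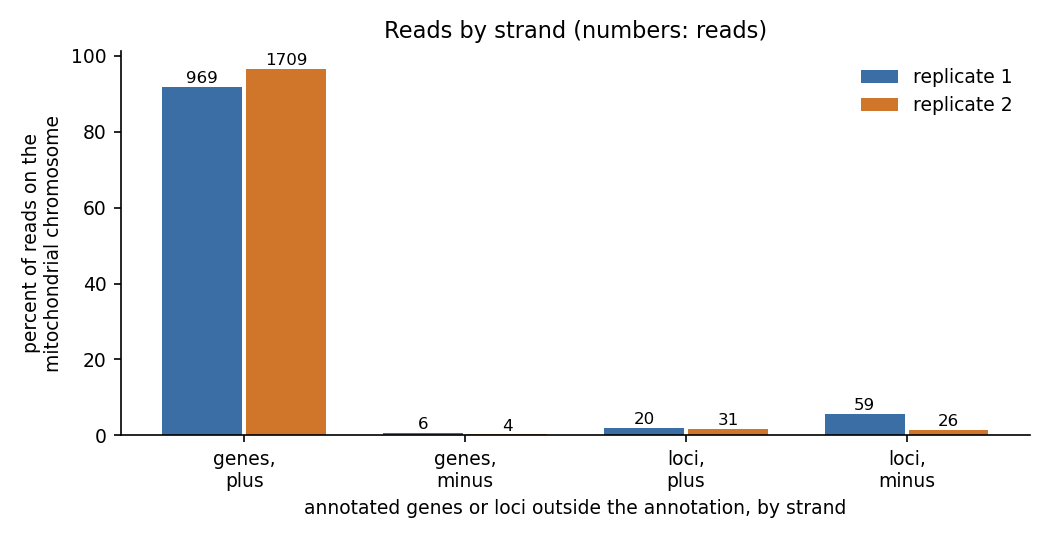
Percent of the reads on the mitochondrial chromosome by strand, for annotated genes and for loci outside the annotation, with the number of reads above each bar. Plus-strand genes hold 969 of 1054 reads in replicate 1 and 1709 of 1770 in replicate 2, and minus-strand loci hold 59 and 26.

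Stretches of mitochondrial DNA also sit in the nuclear genome, and reads of a mitochondrial RNA can be listed under such a copy. A search of all annotated transcripts for mitochondrial sequence (at least 90% identity over at least 100 bases) found 17 nuclear copies, all annotated as pseudogenes. Of these, 7 shared at least 99% of the aligned bases and lie side by side on the minus strand of chromosome 1, between positions 24611535 and 24616197, and 5 of the 7 are identical over the aligned bases. The copy of mt-Co1, Gm29216, differs from the gene at 1 of 483 aligned bases. The copy of mt-Cytb on chromosome 4, Gm11410, differs at 81 of 1142. Windows of 60 bases are shown with the mismatches in capitals, to compare a copy nearly identical to its gene with a more distant one. The mt-Co1 window lies on the plus strand at chrM:6390-6449 and that of its copy on the minus strand at chr1:24616129-24616188. The mt-Cytb window lies on the plus strand at chrM:14146-14205 and that of its copy on the plus strand at chr4:80003990-80004049.
mt-Co1 against Gm29216: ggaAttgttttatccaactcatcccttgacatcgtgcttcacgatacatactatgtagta
Gm29216 against mt-Co1: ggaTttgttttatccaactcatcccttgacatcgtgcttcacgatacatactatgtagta
mt-Cytb against Gm11410: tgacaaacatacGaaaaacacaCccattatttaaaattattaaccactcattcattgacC
Gm11410 against mt-Cytb: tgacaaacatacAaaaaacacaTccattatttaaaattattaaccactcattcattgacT

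The copies on chromosome 1 held 194 reads in replicate 1 and 356 in replicate 2, 5.32-fold more after scaling (4.45 to 6.36). Their share of the reads of gene and copy together was 30.3% in replicate 1 (26.7% to 33.98%) and 30.1% in replicate 2 (27.5% to 32.8%). The copy of mt-Atp6, Gm10925, had 65 and 119 reads, more than the gene itself, 58.0% (48.3% to 67.3%) and 55.9% (48.9% to 62.6%) of their sum. The copy of mt-Co3, Gm28437, had 42 and 76 reads, or 46.7% and 50.3%, and that of mt-Co2, Gm28661, had 36 and 55, or 51.4% and 45.5%. The copy Gm29216, which matches only the last bases of mt-Co1 from base 1063 to base 1545, had 47 and 98 reads, or 14.9% and 16.2%. In each case the intervals of the libraries overlap. The copy of mt-Nd4, Gm28439, which covers its first 876 of 1378 bases, had 1 and 3 reads. The copy of mt-Nd3, Gm28438, with 1 mismatch over 345 aligned bases, had 3 and 2 reads against 1 and 2 for the gene. The copy of mt-Nd4l, Gm10222, identical over the 294 aligned bases, had 0 and 3 reads, while mt-Nd4l itself had 0 in both libraries.

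The levels of mt-Atp6, mt-Co1, mt-Co2, mt-Co3, mt-Nd3, mt-Nd4 and mt-Nd4l, with its 0 reads, are therefore uncertain. The sources used here do not say how a read that matches gene and copy alike was assigned. Other members may be affected too. With at least 100 aligned bases needed, no copy of a tRNA gene (59 to 75 bases) could be found. Nor could copies outside annotated transcripts be found, which leaves mt-Atp8 and its 0 reads open as well. Summed with its copy, mt-Atp6 was 5.51-fold higher in replicate 2 (4.36 to 6.99), mt-Co1 5.56-fold (4.85 to 6.395), mt-Co2 5.01-fold (3.70 to 6.82) and mt-Co3 4.86-fold (3.72 to 6.38). Genes and copies on chromosome 1 together held 0.102% and 0.499% of the reads of annotated genes. The other 10 copies, with 90.7% to 97.6% identity, had reads only for Gm13340, a copy of mt-Co1 on chromosome 2 with 0 and 13 reads. The copy of mt-Cytb had 0 reads in both libraries, and the search found no copy of at least 99% identity for either rRNA gene, mt-Nd1 or mt-Cytb.

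**Figure D5:**
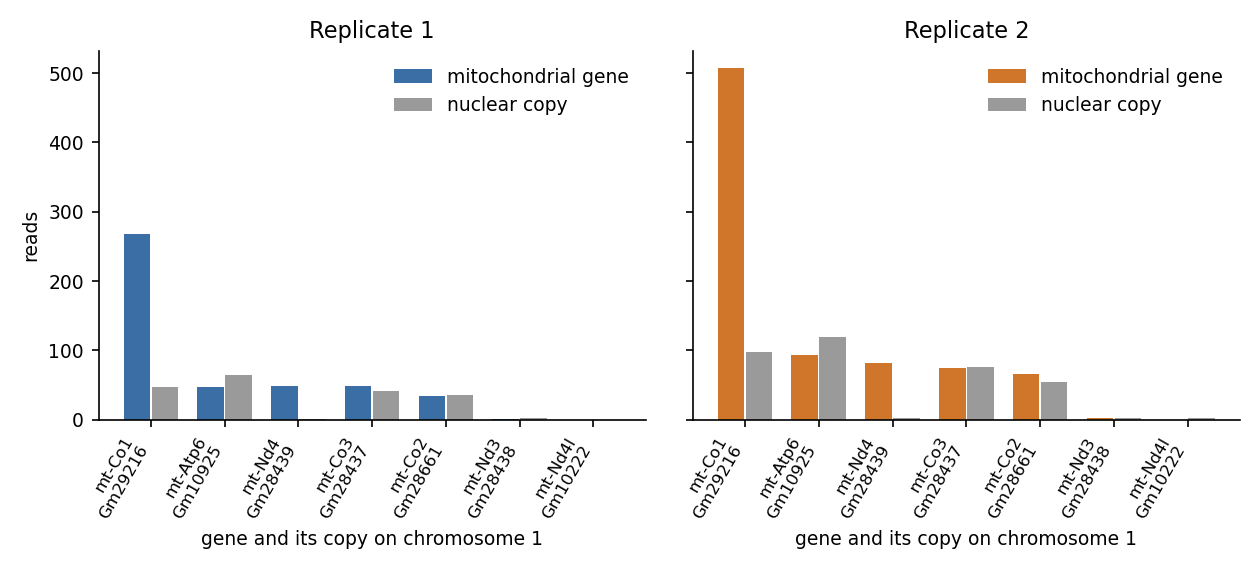
Reads of mitochondrial genes and of their nuclear copies on chromosome 1, with 1 panel per library and pairs ordered by the gene's reads in replicate 2. Gene and copy are near each other for mt-Atp6 (47 and 65 reads in replicate 1), mt-Co3 and mt-Co2, while the copy of mt-Co1 has 47 reads against 268.

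Other measures moved between the libraries beside the mitochondrial genes. Nuclear genes whose most read Known transcript was under 1 kb were called higher in replicate 2 in 21.4% of 1085 cases, against 6.402% of 2390 genes of 1 to 2 kb and 5.59% of 5846 genes over 2 kb, with median log2 ratios of 0.34, -0.04 and -0.08. Among the members tested, the 6 genes over 1 kb had folds from 1.74 (mt-Rnr2) to 10.7 (mt-Cytb), and the 7 shorter ones from 1.48 (mt-Rnr1) to 60.8 (mt-Tm, with 1 and 21 reads). In 384 nuclear genes all reads were in Known models of 1 exon, as for the members. Of these, 40 (10.4%) were called higher and 29 lower, with a median log2 ratio of 0.00. Among the 40 are the nuclear copies Gm10925, Gm28437, Gm28661, Gm29216 and Gm13340, which may hold reads of mitochondrial RNA.

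Skeletal muscle markers were higher in replicate 1: the 10 genes of that list summed to 1052 and 14.5 CPM, 9 of 9 tested were lower in replicate 2, and Tnnc2, Tnnt3, Tnni2, Atp2a1, Tcap and Mb were at 0 there. The 5 brown fat markers summed to 2686 and 4327 CPM, with 3 higher, 0 lower and none at 0 in either library, while Ucp1, the uncoupling protein of brown fat, was at 787 and 671 CPM. White fat markers summed to 3176 and 5495 CPM (2 of 4 higher) and medulla markers to 9944 and 6739 CPM (3 of 5 lower). The 6 cortex markers summed to 63922 and 82233 CPM, and 2 were higher and 1 lower. Over all genes tested, 7.76% were higher and 6.14% lower. The part of transcript length or of these cell types in the mitochondrial result was not tested. In such bulk tissue, more cells of a type and more RNA per cell cannot be told apart.

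Nuclear genes that act on mitochondrial RNA or DNA were mostly not called. The list of 41 genes holds those of mitochondrial transcription, RNA processing and decay and also some of mitochondrial DNA upkeep, such as Ssbp1, Polg and Twnk. Of these, 38 were tested, with 4 higher in replicate 2, 0 lower (5 and 2 with an unadjusted p under 0.05) and a median log2 ratio of 0.10. The 10.5% called higher lies near the 7.76% over all genes tested, and is no result about this list. The higher ones were Ssbp1, the mitochondrial single-stranded DNA-binding protein (223 and 244 reads, 3.17-fold, 2.63 to 3.82), Slirp, which stabilises mitochondrial mRNAs with Lrpprc (191 and 140 reads, 2.12-fold), Hsd17b10, a subunit of mitochondrial RNase P (189 and 109 reads, 1.67-fold), and Fastkd3 (4 and 10 reads, 7.24-fold, 2.09 to 31.6). The mitochondrial RNA polymerase Polrmt had 43 and 10 reads (adjusted p = 0.640), the transcription factor Tfam 33 and 10 (adjusted p = 0.985) and Lrpprc 70 and 21 (adjusted p = 0.866), and none of these passed the exact binomial test. Of 12 mitochondrial translation genes, 0 were higher and 1 was lower, also with an unadjusted p under 0.05, the elongation factor Tufm (251 and 41 reads, 0.473-fold). That is 8.33% lower, near the 6.14% over all genes.

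The listed nuclear subunits of the complexes that hold mitochondrial subunits, a chosen list and not the full set, had a median log2 ratio of 0.40. Of 32 tested, 19 were higher in replicate 2 (59.4%, against 7.76% over all genes) and 4 lower (12.5%, against 6.14%). Nuclear genes whose most read Known transcript was under 1 kb were called higher in 21.4% and lower in 3.32% of cases. The part of transcript length in the calls of these subunits was not tested. All 10 listed complex IV subunits were higher, among them Cox4i1 (2532 and 3830 CPM, 1.59-fold) and Ndufa4, counted here with complex IV (2.93-fold). The complex III subunit Uqcrq was 1.69-fold higher (1836 and 2950 CPM) and the ATP synthase subunit Atp5b 1.11-fold (3560 and 3768 CPM). The 4 lower ones included Atp5a1, the alpha subunit of the ATP synthase (2555 and 1536 CPM, 0.631-fold). Within each complex, the summed nuclear CPM was 20.4 times the summed mitochondrial CPM in replicate 1 and 4.55 times in replicate 2 for complex I. The same ratio was 58.0 and 6.78 for complex III, 36.8 and 11.5 for complex IV, and 232 and 39.4 for the ATP synthase. Every complex thus had more reads from the nuclear subunits counted here than from the mitochondrial ones in both libraries. These sums hold 8 nuclear and 7 mitochondrial genes for complex I, 6 and 1 for complex III, 10 and 3 for complex IV, and 8 and 2 for the ATP synthase. Reads under nuclear copies are left out. By median per gene, the nuclear subunits were also higher, except for complex III in replicate 2 (814 CPM, against 1011 CPM for mt-Cytb).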

How the data were processed

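Long-read RNA-seq of 2 adrenal gland libraries was used. Per the labels' protocols, reads went through the ENCODE long-read pipeline for mouse. For each transcript model the authors deposited a count of whole reads, without normalization, on mm10 with GENCODE M21 per the accompanying notes. TALON is named in the annotation files. The sources used here name no aligner, tool version or rule of read assignment. Coordinates, exon numbers and model lengths in bp were used as deposited.

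Gene counts were sums over models. CPM used the reads of annotated genes. TMM factors (edgeR 4.0.16, 1.02 and 0.976) came from genes with at least 10 reads in total. The exact binomial test (scipy 1.17.1) was run on simulated data that held counting error only, as the test assumes. That run cannot show how the test behaves where libraries differ by more. Log2 ratios used a pseudocount of 1 CPM, folds none. Nuclear copies were found with blastn 2.17.0, on the plus strand of GENCODE M21 transcripts. With 1 library on each side, no model with a replicate term could be fitted.

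The members and gene lists were chosen with earlier results of these data known. Every mt- gene with a read is named, as are loci with at least 5 reads that span several genes. Up to 4 called genes of each other list are named by total reads. The search for copies, models of 1 exon, sums with copies and length classes were chosen after seeing the data, and Ucp1, Polrmt, Tfam, Lrpprc and the nuclear copies were named after their values were seen. Alternatives are given in the closing section.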

Additional observations from a re-analysis of the deposited data

How the results depend on the processing

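The count of mitochondrial genes higher in replicate 2 was 11 under 9 of the 10 alternatives and 10 with models of 1 exon only, with 0 lower throughout. The alternatives were total-read scaling, median-of-ratios scaling, no read minimum, at least 20 reads, Known models only, no Genomic class, no models that span several genes (there were none), equal depth by thinning, models of 1 exon and sums with nuclear copies. The last pair was chosen after seeing the data. Of 128 single-gene values, 127 kept their direction and side of the threshold and 1 was no longer past it (mt-Rnr2, above). The values without models that span several genes repeat the main ones by construction. All member reads are in Known models, so the settings by class left their counts unchanged and altered only scaling and adjustment. The share of all genes called was 13.9%, and 7.18% with no read minimum in test or scaling, where more genes were tested (16945). Called pathway genes numbered 28, and 6 with models of 1 exon, where 32 of them were tested instead of 82. The mean share of plus-strand reads was 99.6%, and 96.1% with loci outside the annotation. The share of reads in models that touch several genes was 0% at 50% overlap and 29.99% at 1 base, both from annotated gene bounds and not from read ends. Without 1 replicate, the mitochondrial share was 0.0852% to 0.413% and the share of loci outside the annotation 3.22% to 7.50%. No paired analysis was possible because there is 1 group. Depth limits the 5 genes under 10 reads and the 19 with 0.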
